A study of Mus musculus with 19 samples.

Results

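The response to 6 h of sleep deprivation was described in the locus coeruleus of control mice, by comparing the 5 libraries of the group WT_SD6 (numbered 6 to 10) with the 4 libraries of the group WT_S6 (numbered 1 to 4), 9 of the 19 libraries of the series. S6 stands for mice that slept normally and SD6 for mice kept awake for 6 h. The libraries were chosen by their group name alone, and every gene of the deposited count table was tested, 14443 in all. WT are the control mice, named ABC-Ctrl in the labels. The other 10 libraries came from ABC-CnB1KO mice, in which CnB1, the regulatory subunit of the calcium-dependent phosphatase calcineurin, was knocked out, and they entered the fit only to estimate the spread between libraries and for the comparison that closes the results. The protocol text places the dissection of all groups 4 weeks after injection of AAV-hSyn-Cre, a virus that carries the recombinase Cre behind the neuronal synapsin promoter, so by that text the control mice received it too. Brains were frozen, sectioned at 200 µm, and the locus coeruleus was dissected from the slices, so each library holds all the cells of a small piece of brainstem. The sources used here do not give the strain, age or sex of the mice, the clock time or the method of deprivation. The 9 libraries are labelled as biological replicates. Unless said otherwise, p-values rest on the spread between libraries of a group, estimated over all 19 libraries and not the 9 alone.

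The locus coeruleus is a small nucleus of the pons whose noradrenergic neurons project to most of the brain, fire during waking and fall silent in rapid eye movement sleep. Keeping an animal awake holds these neurons active, raises circulating glucocorticoid hormone, which acts through a receptor present in neurons, glia and vessels alike, and loads the protein-folding machinery of the endoplasmic reticulum in many brain regions. Waking and sleep are also known to shift transcripts of oligodendrocytes, the cells that make myelin.

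Library totals ran from 6260061 to 7002015 counts after sleep and from 5606129 to 7903253 after deprivation. Levels are CPM, TMM-scaled for the library total. Noradrenergic identity was present in all 9 libraries. Slc6a2, the noradrenaline transporter gene, was at 310.1 to 506 CPM after sleep and 189 to 445 CPM after deprivation, and Dbh, which makes noradrenaline from dopamine, was at 163 to 241 CPM after sleep and 111 to 219.7 CPM after deprivation. The mean log2 CPM of the noradrenergic markers was 7.18, 7.14, 6.45 and 6.42 in the sleep libraries and 7.07, 6.86, 5.74, 6.37 and 7.15 in the deprived ones, so 1 of the deprived libraries, number 8, lay below all others. Markers of cerebellar granule and Purkinje cells, which border the dissected site, were also detected, with means of 5.59, 5.68, 6.97 and 6.76 after sleep and 5.65, 6.87, 7.43, 6.98 and 4.44 after deprivation. Ppp3r1, the gene that codes for CnB1, was at 155 to 164 CPM after sleep and 136 to 165 CPM after deprivation (log2 change -0.08, adjusted p = 0.711).

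**Figure D1:**
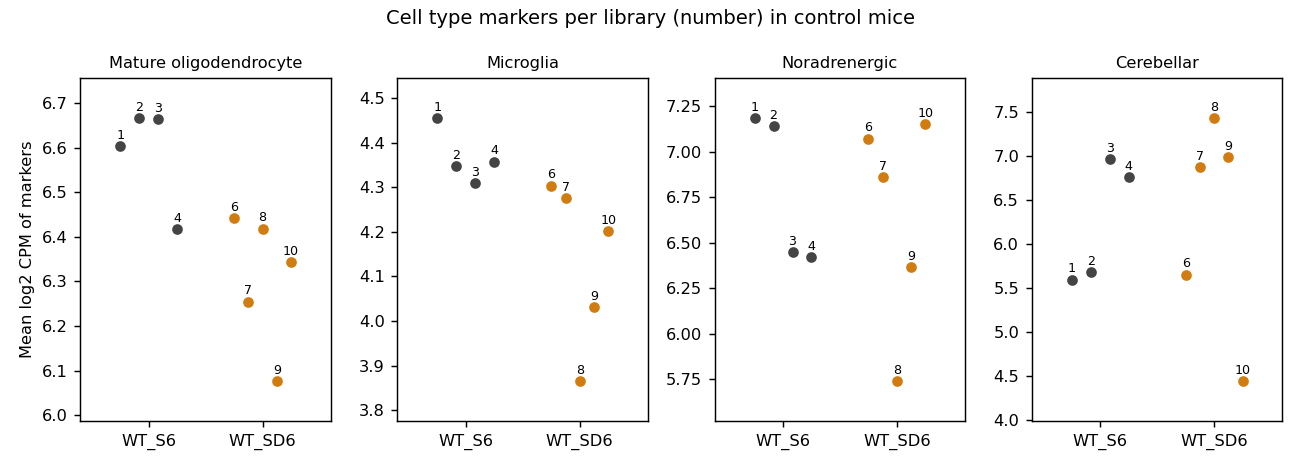
Mean log2 CPM of 4 marker lists in each of the 9 control libraries, by group; each point is 1 library. The microglia means of all 5 deprived libraries lie below those of all 4 sleep libraries, the oligodendrocyte means overlap between 6.42 and 6.44, and the noradrenergic and cerebellar means span wide and overlapping ranges.

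Across the 14443 genes most fitted changes were small. The median log2 change was 0.00, the median size of a change was 0.08 on the log2 scale, and the 5th and 95th percentiles of the change were -0.27 and 0.29. Of all genes, 7272 (50.3%) had a fitted change above 0. Scaling by TMM centres the bulk of genes on no change, so the median and this share do not measure the response. At an adjusted p under 0.05 (edgeR's quasi-likelihood test, Benjamini-Hochberg adjustment over all genes) 165 genes, 1.14% of those tested, passed. Of these, 112 (0.775%) were higher after deprivation and 53 (0.367%) were lower. At an unadjusted p under 0.05 there were 1673 genes (11.6%), 925 higher (6.4%) and 748 lower (5.18%). The count of falls was 81 with DESeq2 and 56 with limma voom. Without WT_S6 library 1, 2 or 4 or WT_SD6 library 9 the counts were 61 and 23, 59 and 19, 53 and 25, and 73 and 26, and without WT_S6 library 3 the count of falls was 21. With the mean of oligodendrocyte markers, which differed between the groups as given below, as a covariate the counts were 61 and 15, and with that of cerebellar markers 250 and 145; the part of either cell type in the calls was not tested. Fitted within the 9 control libraries alone, 27 genes were higher and 8 lower, all of them among the 165.

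Of the 95 genes that passed and are named in these results, 68 lost their call within the 9 control libraries alone, 60 with the oligodendrocyte covariate, and 48 and 50 on the deposited FPKM with a pseudocount of 0.1 and 1. Among the 40 whose calls held whichever library was left out, the fit within the control libraries ended those of Bdnf, Dusp1, Gjb6, Hif3a, Hspa1a, Klf15, Manf, Map3k6, Nfkbia, Npas3, Parn, Plin4, Serpinb1a, Sytl2, Trib1 and Zhx3 (adjusted p up to 0.108). The oligodendrocyte covariate ended those of Bdnf, Dbp, Dnajc3, Dusp1, Hspa1b, Manf, Npas3, Serpinb1a, Spry4, Sytl2, Tfrc, Trib1 and Zhx3 (up to 0.174). FPKM with either pseudocount ended those of Chordc1, Hif3a, Manf, Map3k6, Ndufb2, Npas3, Pnpla7, Serpinb1a, Sytl2 and Zhx3 (up to 0.304).

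Most of the changes that passed were small. The median fold was 1.39, the smallest 1.13 and the largest 10.5, and 22 of the 165 genes changed by under 1.2-fold, 72 by 1.2 to 1.5-fold, 52 by 1.5 to 2-fold and 19 by 2-fold or more. Rises had a median of 1.37-fold and falls of 1.42-fold. Only 9 genes (0.0623%) passed a test against a change of 1.2-fold. They were Plin4, Cdkn1a, Phyhd1, Sgk1, Klf2 and Sdf2l1, all higher, Opalin, which was lower, and 2 genes with provisional symbols. Over all 14443 genes, those that passed included, the 95% interval of the change lay inside 1.2-fold either way for 6567 genes (45.5%), inside 1.5-fold for 12054 (83.5%) and inside 2-fold for 13873 (96.1%).

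Genes passed at all levels of expression. Genes under 5 CPM had 7 rises and 6 falls among 830, and their 95% intervals reached a median of 1.40-fold to either side. Between 20 and 50 CPM, 32 rose and 18 fell of 3792. Above 200 CPM, where the abundant transcripts of neurons and myelin lie, 2 rose and 1 fell of 950 (0.316%). Counts of genes above 200 per kilobase of exon rose less than in proportion to the library total, with median slopes on log scales of 0.81 at 200 to 400, 0.51 at 400 to 800 and 0.29 above, and the part of this in the low share was not tested. Of protein-coding genes 107 rose and 41 fell among 13101, and of other gene types 5 rose and 11 fell among 1000. Symbols that are provisional made up 8.25% of all genes, 5.36% of the rises and 20.8% of the falls. The libraries carry no strand information, and 37 of the 165 genes overlap an exon of a gene on the opposite strand, so their counts can hold reads of that neighbour.

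**Figure D2:**
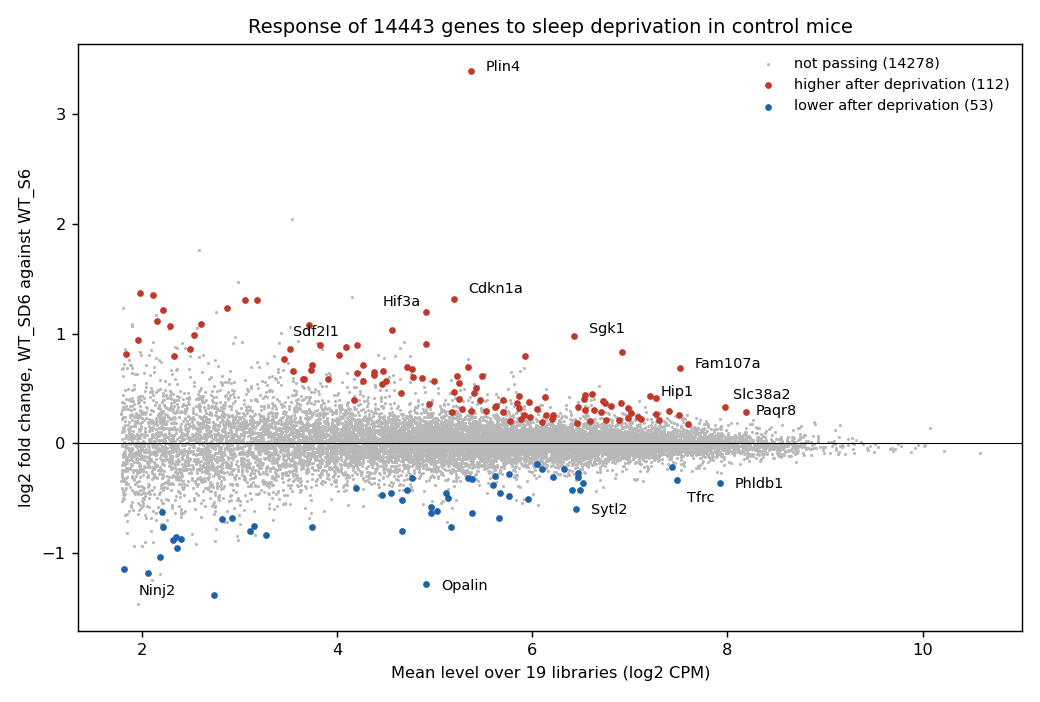
Fitted log2 change with deprivation in control mice against the mean log2 CPM of each of the 14443 genes, with the 112 genes that rose and the 53 that fell marked. Most points lie close to 0 at all levels, and the largest changes stand at low and middle levels.

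The 4 sleep and 5 deprived libraries did not overlap for 752 genes (5.21% of all), 449 of them higher (3.11%) and 303 lower (2.1%). Among the 165 genes that passed, 104 of 112 rises and 52 of 53 falls had no overlap, which the test itself favours. The deprived libraries were not alike in the size of their response. Relative to the sleep mean, the glucocorticoid-responsive genes described below stood at 0.56, 0.38, 0.48, 0.76 and 0.77 on the log2 scale in libraries 6 to 10, and transcription factors of neuronal activity at 0.24, 0.35, 0.38, 0.29 and 0.25. Libraries 7 and 8 were thus lowest in the first list and highest in the second.

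**Figure D3:**
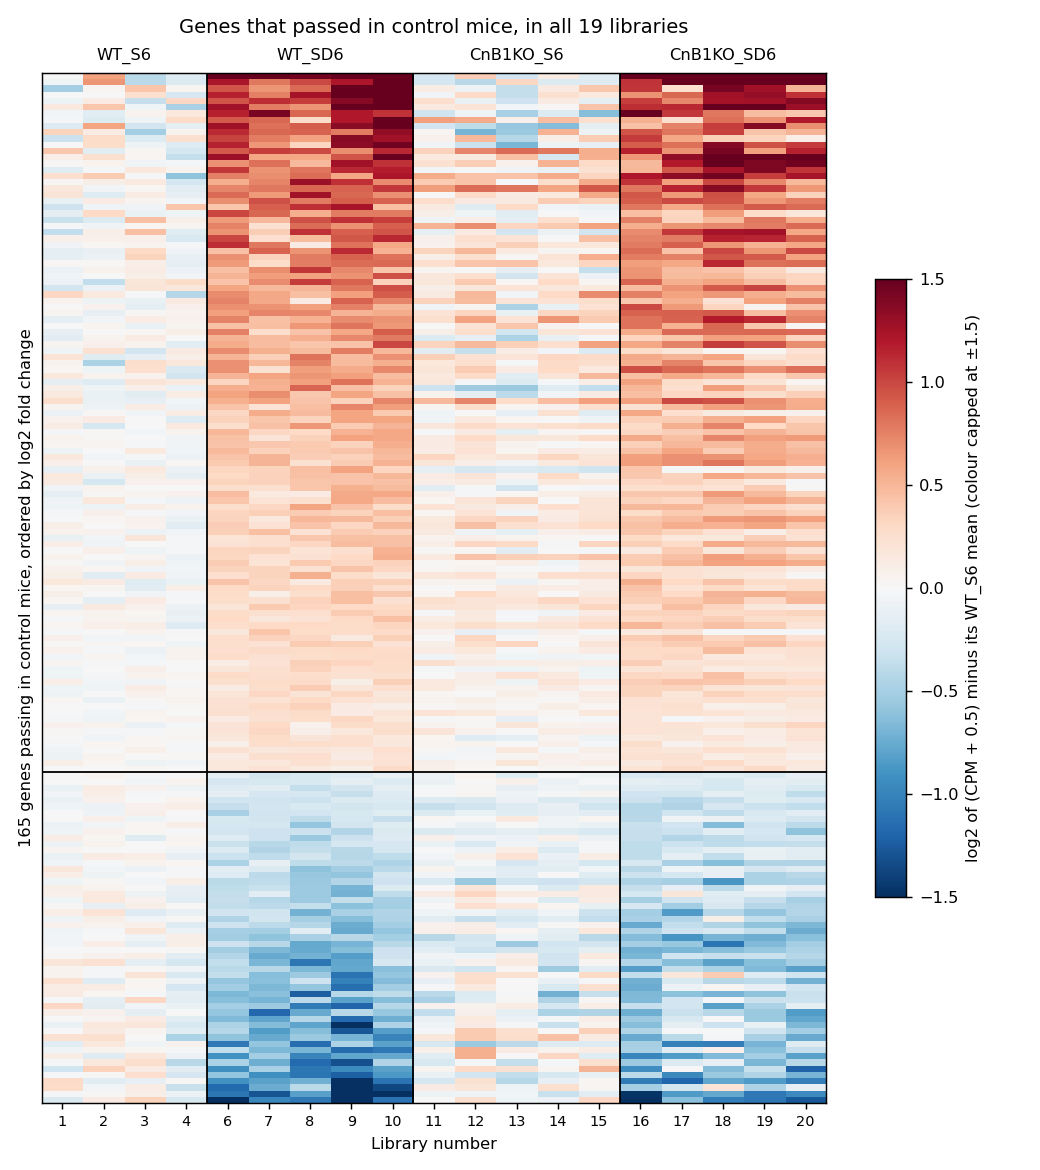
The 165 genes that passed in control mice (1 line each) across all 19 libraries, as log2(CPM + 0.5) minus the mean of the WT_S6 libraries, with colours capped at 1.5 either way. The genes were chosen for the contrast between the WT_S6 and WT_SD6 columns; the CnB1KO columns entered that choice only through the shared estimate of the spread.

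Glucocorticoid-responsive genes held the largest share of rises of any list examined. Of 38 measured members 18 rose and 0 fell, 36 had a change above 0 and the median log2 change was 0.48, against 0.00 over all genes. Among all genes 0.775% rose and 50.3% had a change above 0. Lists share members, so the counts below are not separate. Sgk1 and Ddit4 count again among the insulin genes, Plin4 and Pnpla2 among the lipid droplet genes, and Dusp1 and Errfi1 among the MAP kinase inhibitors. Cdkn1a, Hif3a, Map3k6, Per1, Tsc22d3, Gjb6 and Nfkbia each count again in another list. The glucocorticoid list was drawn up with earlier results of these data known, so its direction is not independent evidence. The count was 11 without WT_S6 library 4, 4 within the 9 control libraries alone, 14 with limma voom and 21 with DESeq2, and over leaving out each library it ran from 11 to 20. The receptor genes themselves were not among the changes. Nr3c1, which codes for the glucocorticoid receptor, was at 153 to 166 CPM after sleep and 140.4 to 162 CPM after deprivation (log2 change -0.06, adjusted p = 0.732), and Nr3c2, for the mineralocorticoid receptor, at 61.7 to 66.5 CPM after sleep and 51.5 to 60.5 CPM after deprivation (log2 change -0.16, adjusted p = 0.469). None of the 7 measured members of the receptor system passed with edgeR, DESeq2 or limma voom, and 2 reached an unadjusted p under 0.05.

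Plin4 codes for a protein that coats lipid droplets and lies on chromosome 17, 56100591 to 56109803 of GRCm38. It was at 6.46, 10.03, 4.72 and 5.55 CPM in the 4 sleep libraries and 92.3, 23.5, 18.4, 88.6 and 128 CPM in the 5 deprived libraries. All deprived libraries lay above all sleep libraries, but numbers 7 and 8 stood far below the other 3. The fitted rise was 10.5-fold (log2 change 3.39, SE 0.52, adjusted p = 0.00247). It did not pass with limma voom (adjusted p = 0.118) or within the 9 control libraries alone (adjusted p = 0.0698). On the log2(FPKM + 1) scale the change was 2.35 and on log2(FPKM + 0.1) 2.999. With the noradrenergic score, which was lowest in library 8, as a covariate the log2 change of Plin4 was 3.498 and with the cerebellar score 3.27. An exon of Hdgfl2 overlaps Plin4 on the opposite strand, and the log2 change of Hdgfl2, a gene singled out for that overlap, was 0.02.

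Sgk1, a kinase gene induced by corticosteroids that regulates ion transport, was at 48.7, 54.3, 61.96 and 57.7 CPM in the 4 sleep libraries and 116, 89.01, 96.9, 122 and 126 CPM in the 5 deprived libraries. The lowest deprived library stood far above the highest sleep library. The rise was 1.97-fold (log2 change 0.98, SE 0.14, adjusted p = 0.00176). Its promoter is shown because, of the 99 among the 112 rises whose promoters are listed, it alone holds the full glucocorticoid response element (AGAACA and TGTTC with any 3 bases between them) on either strand, a motif found in 2 of 11044 promoters of tested genes (0.0181%) in windows from 250 bases before to 50 after a start. The half-site AGAACA alone, on either strand, was found in 13 of the 99 rises (13.1%), 2 of 42 falls (4.76%) and 14.7% of all promoters. The windows come from the RefSeq annotation of GRCm38.p6 and, like the others below, were picked after the matches had been seen. The stretch shown runs 30 bases to either side of the matches, and capitals mark the motif, matched on both strands with overlapping letters, upstream of 1 of the 6 starts listed for Sgk1.
Sgk1 promoter, GRCm38.p6 chr10:21993671-21993745 (+): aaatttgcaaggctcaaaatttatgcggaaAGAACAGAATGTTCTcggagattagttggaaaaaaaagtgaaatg
A match describes the letters of a window and is neither a site nor a cause.

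Cdkn1a codes for p21, an inhibitor of the cell cycle that both p53 and glucocorticoids induce. It was at 21.1, 21.3, 25.04 and 17.7 CPM in the 4 sleep libraries and 47.9, 36.03, 50.8, 68.9 and 63.02 CPM in the 5 deprived libraries, and the lowest deprived library stood well above the highest sleep library. The rise was 2.49-fold (log2 change 1.32, SE 0.18, adjusted p = 8.7e-04). Of the 24 measured p53 genes 2 rose and 0 fell, with a median of 0.14, against 0.775% of all genes that rose and a median of 0.00. The other one was Ccng1, a cyclin G gene, which rose 1.14-fold (adjusted p = 0.0376). Its call was lost without any 1 of 9 of the 19 libraries (highest adjusted p = 0.133).

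Hif3a, an inhibitory member of the hypoxia-inducible factor family that also answers to glucocorticoids, was at 16.9, 29.5, 15.9 and 17.6 CPM in the 4 sleep libraries and 47.3, 34.6, 36.6, 50.2 and 59.1 CPM in the 5 deprived libraries. Library 2 stood above the other sleep libraries but still below every deprived one. The rise was 2.29-fold (log2 change 1.19, SE 0.21, adjusted p = 0.00662). It did not pass within the 9 control libraries alone (adjusted p = 0.0683), nor on FPKM with a pseudocount of 0.1 (0.0742) or 1 (0.0657). P4ha1, a collagen prolyl hydroxylase gene, rose 1.34-fold (adjusted p = 8.2e-04), and no other of the 20 measured hypoxia genes passed.

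Errfi1, a member of the same list that restrains the epidermal growth factor receptor, was at 48.7, 49.1, 47.1 and 45.8 CPM in the 4 sleep libraries and 64.4, 63.4, 62.9, 60.7 and 69.9 CPM in the 5 deprived libraries, with little spread in either group, and rose 1.35-fold (log2 change 0.43, SE 0.05, adjusted p = 6.1e-04). Klf15, a transcription factor of amino acid and lipid metabolism, rose 1.38-fold (adjusted p = 0.00613), and Nfkbia, the inhibitor of NF-kB, 1.602-fold (adjusted p = 0.00934). Map3k6, a stress-activated kinase gene, rose 2.48-fold (adjusted p = 0.00946) from 3.09 to 6.172 CPM after sleep and 7.47 to 15.5 CPM after deprivation. Mertk, a phagocytic receptor gene of astrocytes and microglia, rose 1.53-fold (adjusted p = 0.00239). Gjb6, which codes for the astrocyte connexin 30, rose 1.36-fold (adjusted p = 0.00529) while Gja1, for connexin 43, was at 178 to 198 CPM after sleep and 184 to 203 CPM after deprivation (log2 change 0.03, adjusted p = 0.935).

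Some members of the list lost their calls when single libraries were left out. Among them were Tsc22d3, which codes for the glucocorticoid-induced leucine zipper (1.31-fold, adjusted p = 0.0301, lost without any of 6 libraries, highest adjusted p = 0.104), and Cebpd, a transcription factor of acute stress (1.99-fold, adjusted p = 0.0243, lost without any of 6, highest adjusted p = 0.08). Plekhf1, a gene of endosomes and lysosomes, rose 1.75-fold (adjusted p = 0.04) with groups that overlapped, and its call was lost without any of 10 libraries (highest adjusted p = 0.151). Sult1a1, a sulfotransferase gene, was at 8.20, 10.03, 7.73 and 7.10 CPM in the 4 sleep libraries and 18.9, 13.1, 10.4, 21.5 and 23.2 CPM in the 5 deprived libraries. Libraries 7 and 8 were the lowest of the deprived group here as well. It rose 2.11-fold (adjusted p = 0.0128), and not without WT_S6 library 4 (adjusted p = 0.056).

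**Figure D4:**
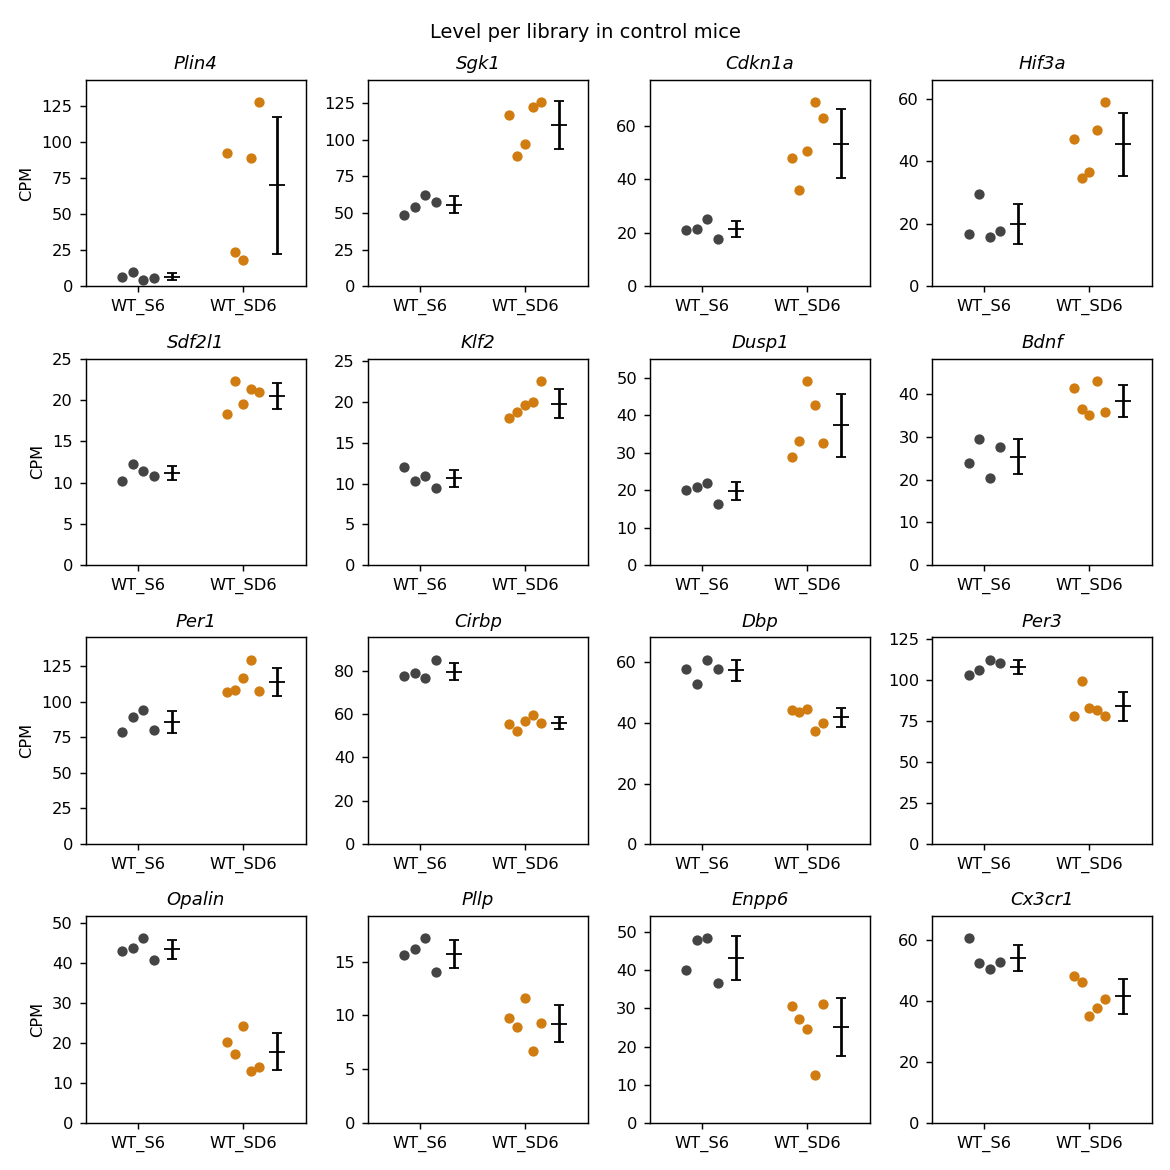
CPM of 16 genes in each of the 9 control libraries (points), with the mean and SD of each group. The deprived libraries of Plin4 spread from 18.4 to 128 CPM, whereas those of Cirbp and Sdf2l1 lie close together.

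Some genes of the lipid droplet list and of the insulin list rose, and none of the glucose transport and glycolysis list passed. Of 25 lipid droplet genes 3 rose, namely Plin4, Pnpla2, which codes for the lipase that begins triglyceride breakdown (1.31-fold, adjusted p = 0.0413), and Pnpla7, a lysophospholipase gene (1.62-fold, adjusted p = 0.00229). The median of the list was 0.04, against 0.00 over all genes, of which 0.775% rose. Plin4 and Pnpla2 are also counted among the glucocorticoid-responsive rises. The Pnpla2 call was lost without any of 13 libraries (highest adjusted p = 0.151), and with limma voom 1 of the 25 passed. Of 28 genes of fatty acid oxidation only Phyhd1, a dioxygenase related to phytanoyl-CoA hydroxylase, passed. It was at 4.26, 4.94, 3.43 and 5.71 CPM in the 4 sleep libraries and 9.16, 10.3, 9.75, 12.4 and 15.1 CPM in the 5 deprived libraries, with no overlap between the groups, and rose 2.48-fold (log2 change 1.31, SE 0.19, adjusted p = 0.00159). On log2 FPKM the change of Phyhd1 was smaller, 0.69 with a pseudocount of 0.1 and 0.66 with 1. Cpt1a, the carnitine transferase that admits fatty acids to mitochondria, was at 68.95 to 88.1 CPM after sleep and 61.3 to 99.96 CPM after deprivation (log2 change -0.06, adjusted p = 0.9). Pdk4, the kinase that turns pyruvate away from oxidation, was at 8.33 to 14.7 CPM after sleep and 16.2 to 25.6 CPM after deprivation (log2 change 0.56, adjusted p = 0.226).

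Of the 38 measured insulin and FoxO genes 6 rose and 0 fell, against 0.775% of all genes that rose, and the median was 0.04 against 0.00 over all genes. They were Sgk1, Igf1r, which codes for the receptor of insulin-like growth factor 1 (1.13-fold, adjusted p = 0.0472), Igfbp3, a binding protein of that factor (1.48-fold, adjusted p = 0.0189), Trib1, a pseudokinase gene (1.62-fold, adjusted p = 0.00946), Ddit4, an inhibitor of mTOR signalling (1.42-fold, adjusted p = 0.0146), and Eif4ebp2, a repressor of translation (1.16-fold, adjusted p = 0.0388). Sgk1 and Ddit4 are also counted among the glucocorticoid-responsive rises. The count of insulin and FoxO rises was 2 without WT_S6 library 2 or 4 and 1 within the control libraries alone. Igf1r and Eif4ebp2 lost their calls without any of 15 and 11 libraries (highest adjusted p = 0.136 and 0.115), and Igfbp3 and Ddit4 without WT_S6 library 2 or 4 (0.08 and 0.0649). Trib1 was at 19.5, 21.8, 22.6 and 19.6 CPM in the 4 sleep libraries and 28.7, 34.2, 44.4, 34.7 and 27.9 CPM in the 5 deprived libraries. Its highest value came from library 8, which had the lowest Plin4.

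Of 32 genes of glucose transport and glycolysis 0 passed with edgeR, DESeq2 or limma voom, and 3 reached an unadjusted p under 0.05. Pfkp, a phosphofructokinase gene, was at 327 to 341 CPM after sleep and 318 to 355 CPM after deprivation. Epm2a, which codes for the glycogen phosphatase laforin, was the only one of 20 glycogen genes to pass, 1.14-fold lower (adjusted p = 0.0494), and lost its call without any of 15 libraries (highest adjusted p = 0.165). Cholesterol genes lay mostly below 0, with 0 calls in edgeR and limma voom and 1 in DESeq2. Of 30 genes 26 were below 0, the median was -0.11, and 5 reached an unadjusted p under 0.05 on the lower side and 1 on the higher. Over all genes these shares were 5.18% on the lower side and 6.4% on the higher.

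Some genes induced by neuronal firing rose. Of 25 measured transcription factors of this class 3 rose and 0 fell, with a median of 0.29 against 0.00 over all genes, and 10 reached an unadjusted p under 0.05 on the higher side. Among all genes 0.775% rose and 6.4% reached an unadjusted p under 0.05 on the higher side. Fosl2, an AP-1 subunit gene, was at 17.3, 18.1, 15.7 and 18.2 CPM in the 4 sleep libraries and 28.1, 27.97, 26.7, 29.5 and 24.5 CPM in the 5 deprived libraries, with no overlap, and rose 1.57-fold (log2 change 0.65, SE 0.15, adjusted p = 0.0369). Its call was lost without any of 8 libraries (highest adjusted p = 0.113). Crem, a factor of cAMP signalling, rose 1.32-fold (adjusted p = 0.0391), and its call was lost without any of 14 libraries (highest adjusted p = 0.144). Klf2, a factor shared with blood vessels, is described below. The number of these factors that passed was 1 without any 1 of 8 libraries (all 4 of WT_S6, 6, 7 and 9 of WT_SD6 and CnB1KO_S6 library 11), and 6 with the cerebellar score as a covariate.

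Fos, the usual marker of recent firing, was at 15.3, 12.8, 7.58 and 9.41 CPM in the 4 sleep libraries and 23.3, 23.2, 39.5, 35.3 and 20.9 CPM in the 5 deprived libraries. The groups did not overlap, libraries 8 and 9 were highest, and the change did not pass (log2 change 1.33, adjusted p = 0.0562). The adjusted p of Fos was 0.0482 by limma voom, 0.00813 by DESeq2, 0.0117 with the cerebellar score as covariate and 0.00597 when CnB1KO_SD6 library 16 was left out. Egr1, of the same class, was at 45.8 to 55.9 CPM after sleep and 29.04 to 59.3 CPM after deprivation (log2 change -0.21, adjusted p = 0.681), and Arc, which acts at synapses, at 27.1 to 39.1 CPM after sleep and 28.6 to 39.8 CPM after deprivation (log2 change -0.07, adjusted p = 0.91). The groups overlapped for both genes.

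Among 26 effector genes of activity Bdnf and Gpr3 rose, against 0.775% of all genes, and the list had a median of 0.09. Bdnf, which codes for a growth factor of synapses, was at 23.96, 29.5, 20.5 and 27.6 CPM in the 4 sleep libraries and 41.5, 36.5, 35.1, 43.1 and 35.7 CPM in the 5 deprived libraries. All deprived libraries lay above all sleep libraries, and the rise was 1.51-fold (log2 change 0.60, SE 0.10, adjusted p = 0.00709). Gpr3, a receptor gene that raises cAMP, rose 1.59-fold (adjusted p = 0.0414), and its call was lost without any of 13 libraries (highest adjusted p = 0.153). Homer1, a postsynaptic scaffold gene, was at 59.1 to 66.5 CPM after sleep and 65.3 to 97.1 CPM after deprivation and did not pass (log2 change 0.35, adjusted p = 0.109). Its adjusted p was 0.0405 when WT_SD6 library 6 was left out, 0.0311 with the noradrenergic score as covariate and 0.00932 with the cerebellar score.

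Brakes on MAP kinase signalling were among the rises. Of 22 measured phosphatases and Sprouty-type inhibitors 4 rose and 0 fell, with a median of 0.14, against 0.775% of all genes that rose and a median of 0.00, while of 31 MAP kinase genes only Map3k6 passed. The difference between these shares was not tested, and Dusp1, Errfi1 and Map3k6 are also counted among the glucocorticoid-responsive rises. Dusp1, a phosphatase that switches MAP kinases off, was at 20.02, 20.99, 21.9 and 16.4 CPM in the 4 sleep libraries and 28.95, 33.1, 49.2, 42.7 and 32.6 CPM in the 5 deprived libraries. Libraries 8 and 9 were the highest, and the groups did not overlap. It rose 1.88-fold (log2 change 0.91, SE 0.16, adjusted p = 0.00709). Spry4, an inhibitor of growth factor signalling, rose 1.47-fold (adjusted p = 0.00444), and Dusp6, which acts on ERK, rose 1.37-fold (adjusted p = 0.0342) with a call lost without any of 8 libraries (highest adjusted p = 0.132). Within the control libraries alone 2 of the 22 passed, and 1 with the oligodendrocyte score as covariate.

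The Dusp1 promoter is shown for its cAMP response element TGACGTCA (capitals, a palindrome that reads alike on both strands), held by 5 of the 99 rises (5.05%), 0 of 42 falls and 3.5% of all 11044 promoters.
Dusp1 promoter, GRCm38.p6 chr17:26508578-26508645 (-): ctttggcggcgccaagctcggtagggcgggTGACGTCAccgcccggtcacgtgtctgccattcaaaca
The share among the rises is close to that of all promoters, and the same held for the AP-1 letters TGANTCA, with 6.06% of rises against 677 of the 11044.

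Clock genes moved in both directions. Of 20 core clock genes Npas2 and Per1 rose and Per3 fell, with a median of 0.00, while 0.775% of all genes rose and 0.367% fell. Per1, a light- and hormone-responsive repressor of the clock, was at 78.3, 89.2, 94.4 and 80.2 CPM in the 4 sleep libraries and 107, 108, 117, 129 and 107 CPM in the 5 deprived libraries, and the lowest deprived library stood above the highest sleep library. It rose 1.33-fold (log2 change 0.41, SE 0.08, adjusted p = 0.0155). The call was lost without WT_S6 library 1 (adjusted p = 0.0714) or 4 (0.0698). Npas2, a partner of Bmal1 in activating the clock, rose 1.499-fold (adjusted p = 0.0132) with groups that overlapped narrowly, and its call was lost without WT_S6 library 2 (0.058) or 4 (0.0622). Per2, the closest relative of Per1, was at 46.2 to 50.2 CPM after sleep and 52.3 to 61.1 CPM after deprivation and did not pass (log2 change 0.23, adjusted p = 0.434).

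Per3 was at 103, 106, 112 and 110.3 CPM in the 4 sleep libraries and 77.9, 99.3, 82.9, 82.02 and 78.3 CPM in the 5 deprived libraries. Library 7 stood apart from the other 4 deprived libraries but below every sleep library. It was 1.29-fold lower (log2 change -0.36, SE 0.08, adjusted p = 0.0205), and its call was lost without any of 5 libraries (highest adjusted p = 0.075). Dbp, an output factor that binds D-boxes, was at 57.8, 52.8, 60.95 and 58 CPM in the 4 sleep libraries and 44.2, 43.7, 44.5, 37.3 and 40.2 CPM in the 5 deprived libraries, again with no overlap. It was 1.37-fold lower (log2 change -0.45, SE 0.08, adjusted p = 0.00645). Of 12 clock output genes it was the only one to fall, and Tsc22d3 the only one to rise. Over all genes 0.367% fell and 0.775% rose. At an unadjusted p under 0.05, 4 of the 12 were higher and 2 lower, against 6.4% and 5.18% of all genes.

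Promoter windows of Per1 and Per3 are given because they hold the elements through which the clock is known to act, in capitals. The E-box CACGTG was found in 14.1% of the rises, 7.14% of the falls and 11.5% of all promoters. The D-box TTATGTAA, searched on both strands, was found in 0 of 99 rises, in 1 of 42 falls (Per3, with 2 matches) and in 0.688% of all promoters.
Per1 promoter, GRCm38.p6 chr11:69098753-69098818 (+): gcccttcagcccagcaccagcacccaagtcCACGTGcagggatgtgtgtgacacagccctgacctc
Per3 promoter, GRCm38.p6 chr4:151044786-151044900 (-): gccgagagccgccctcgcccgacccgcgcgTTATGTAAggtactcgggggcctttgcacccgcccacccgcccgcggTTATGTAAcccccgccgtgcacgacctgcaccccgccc
Per1 has 2 listed starts and Per3 has 1.

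Cirbp, an RNA-binding protein gene induced by mild cooling, fell, and it was among the most even changes. It was at 77.4, 79.2, 76.8 and 85.1 CPM in the 4 sleep libraries and 55.2, 52.3, 56.8, 59.7 and 55.7 CPM in the 5 deprived libraries. The highest deprived library held 59.7 CPM and the lowest sleep library 76.8. Cirbp was 1.42-fold lower (log2 change -0.51, SE 0.07, adjusted p = 8.7e-04). Rbm3, the other well-known cold-induced gene, was at 47.5 to 55.2 CPM after sleep and 39.6 to 60.5 CPM after deprivation (log2 change -0.01, adjusted p = 0.991). On the deposited FPKM Rbm3 lay lower after deprivation, at 32.3 to 45.9 against 45.8 to 56.5 after sleep, so its course depends on the measure. Of the 9 cold-responsive RNA-binding genes only Cirbp passed.

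Some chaperones of the cytosol and of the endoplasmic reticulum rose. Of 38 measured chaperone and folding genes of the endoplasmic reticulum 5 rose and 0 fell, 28 were above 0, and the median was 0.08. Over all genes 0.775% rose, 50.3% were above 0 and the median was 0.00. Sdf2l1, a cochaperone of that compartment, was at 10.2, 12.2, 11.4 and 10.8 CPM in the 4 sleep libraries and 18.3, 22.3, 19.5, 21.3 and 21.01 CPM in the 5 deprived libraries, with the groups well apart. It rose 1.83-fold (log2 change 0.87, SE 0.09, adjusted p = 2.2e-04), the smallest adjusted p of all genes that rose. Manf, a secreted survival factor of stressed cells, rose 1.24-fold (adjusted p = 0.0108), and Dnajb11, a cochaperone, 1.18-fold (adjusted p = 0.018). Pdia4, a disulfide isomerase gene, rose 1.25-fold (adjusted p = 0.0467) with overlapping groups, and its call was lost without any of 15 libraries (highest adjusted p = 0.166). Hspa5, the central chaperone BiP, was at 158 to 178 CPM after sleep and 184 to 219 CPM after deprivation. Its groups did not overlap, and its change did not pass (log2 change 0.22, adjusted p = 0.187).

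The count of folding genes that rose was 3 without WT_S6 library 2 or WT_SD6 library 9, 2 within the control libraries alone, 1 with the oligodendrocyte score as a covariate and 8 with the cerebellar score. Dnajc3, an inhibitor of the translation-blocking kinase PERK, was at 118, 111, 107 and 118 CPM in the 4 sleep libraries and 135, 138, 137, 139 and 137 CPM in the 5 deprived libraries. The 5 deprived libraries lay close together and above all sleep libraries. It rose 1.21-fold (log2 change 0.28, SE 0.05, adjusted p = 0.0103). It was the only 1 of the 99 rises with a promoter that held the endoplasmic reticulum stress element (CCAAT and CCACG with any 9 bases between them) on either strand, against 20 of all 11044 (0.181%), and is shown for that.
Dnajc3 promoter, GRCm38.p6 chr14:118937797-118937875 (+): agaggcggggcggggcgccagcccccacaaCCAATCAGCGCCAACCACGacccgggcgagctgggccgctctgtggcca

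Of 39 heat shock genes 3 rose and 0 fell, 31 were above 0, and the median was 0.07. The shares over all genes were 0.775% rising and 50.3% above 0, with a median of 0.00. Hspa1b, an inducible HSP70 gene, was at 4.26, 3.86, 4.58 and 4.94 CPM in the 4 sleep libraries and 10.5, 12.6, 8.38, 10.7 and 9.89 CPM in the 5 deprived libraries. The rise was 2.36-fold (log2 change 1.24, SE 0.22, adjusted p = 0.00709), with no overlap between the groups. Its neighbour Hspa1a rose 1.81-fold (adjusted p = 0.00394); these genes are near-identical copies, so how reads were split between them is uncertain. Hspa8, the HSP70 of unstressed cells, was at 130.1 to 141.4 CPM after sleep and 122 to 162 CPM after deprivation (log2 change 0.03, adjusted p = 0.968). On the deposited FPKM Hspa8 lay higher after deprivation, at 272 to 352 against 248 to 274 after sleep. Chordc1, a cochaperone of HSP90, was at 119, 116, 109.7 and 111 CPM in the 4 sleep libraries and 143, 143, 134, 153 and 141.2 CPM in the 5 deprived libraries. It rose 1.25-fold (adjusted p = 8.2e-04), with no overlap between the groups in CPM. On the deposited FPKM the groups overlapped, with 25.4 to 29.8 in the sleep libraries against 27.6 to 33.8 in the deprived ones, where the change did not pass (adjusted p = 0.212 and 0.2103 with the pseudocounts of 0.1 and 1). Its window is shown because it alone of the 99 rises with a listed promoter held the heat shock element. The element is GAA, TTC and GAA with any 2 bases between neighbours. It was searched on both strands and found in 0.561% of all promoters. Other forms of the element, and letters outside the windows, were not searched. In Chordc1 the element had 3 overlapping matches that cover the start of the gene, from 4 bases before it to 19 after it.
Chordc1 promoter, GRCm38.p6 chr9:18292263-18292285 (+): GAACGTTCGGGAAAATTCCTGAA

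Other arms of protein quality control gave no calls. Of 36 proteasome genes and 30 genes of autophagy and lysosome 0 passed with edgeR, DESeq2 or limma voom, and 0 reached an unadjusted p under 0.05. Psmd2, of the proteasome cap, was at 176 to 188 CPM after sleep and 172 to 191 CPM after deprivation, and Sqstm1, an autophagy receptor, at 179 to 199 CPM after sleep and 172 to 215 CPM after deprivation.

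Slc38a2, a sodium-coupled carrier of glutamine and alanine induced by amino acid shortage, was at 215, 203, 225 and 203 CPM in the 4 sleep libraries and 275, 243, 276, 262 and 269 CPM in the 5 deprived libraries. No deprived library reached down to the sleep range, and the rise was 1.25-fold (log2 change 0.33, SE 0.05, adjusted p = 0.00499). It was the only 1 of 31 genes of the integrated stress response and amino acid supply to pass. Slc5a3, which imports the osmolyte myo-inositol, rose 1.33-fold (adjusted p = 0.00384), from 114 to 128 CPM after sleep and 143 to 175 CPM after deprivation. Gpt2, which makes alanine and 2-oxoglutarate in mitochondria, was at 81.3, 83.2, 79.8 and 85.1 CPM in the 4 sleep libraries and 116, 102, 102, 119 and 123 CPM in the 5 deprived libraries, and rose 1.36-fold (log2 change 0.45, SE 0.06, adjusted p = 8.8e-04). These 3 genes passed under every alternative of the analysis.

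Hip1, a clathrin adaptor gene, was at 115, 119.9, 133 and 116 CPM in the 4 sleep libraries and 170.0, 153, 159, 162 and 170.4 CPM in the 5 deprived libraries, with no overlap, and rose 1.35-fold (log2 change 0.43, SE 0.05, adjusted p = 8.2e-04). Tns3, which codes for a tensin of focal adhesions, rose 1.23-fold (adjusted p = 0.00482). Paqr8, a membrane progestin receptor gene, was at 239.7 to 254 CPM after sleep and 289 to 325 CPM after deprivation and rose 1.22-fold (adjusted p = 0.0183), a call lost without any of 4 libraries (highest adjusted p = 0.08). Zhx3, a transcriptional repressor gene, rose 1.197-fold (adjusted p = 0.00499). Fam107a, an actin-bundling stress gene, was at 129, 105, 155 and 165 CPM in the 4 sleep libraries and 183, 224, 282, 252 and 174 CPM in the 5 deprived libraries. Libraries 7, 8 and 9, those with the higher cerebellar scores, were the highest. It rose 1.61-fold (adjusted p = 0.0279), and with the cerebellar score as covariate its log2 change was 0.67. The Fam107a call was lost without any of 5 libraries (highest adjusted p = 0.113).

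A few rises stood at low levels. Fam83d, a gene of the mitotic spindle, was at 1.58, 2.93, 1.14 and 1.39 CPM in the 4 sleep libraries and 4.58, 3.25, 3.81, 4.55 and 6.43 CPM in the 5 deprived libraries, 2.58-fold higher (adjusted p = 0.0197). Tmem52, a little-described membrane protein gene, was 2.56-fold higher (adjusted p = 0.0391), and Acsm5, an acyl-CoA synthetase gene, 2.13-fold higher (adjusted p = 0.0231). Cdiptos, which overlaps Cdipt on the opposite strand, was 2.16-fold higher (adjusted p = 0.0321). Leaving out single libraries ended these calls in 4, 9, 5 and 5 of 19 cases, with highest adjusted p-values of 0.0849, 0.145, 0.1 and 0.111. Ndufb2, a subunit of respiratory complex I, was an exception among the 75 measured genes of oxidative phosphorylation. It was at 48.2, 51.2, 47.8 and 47.4 CPM in the 4 sleep libraries and 61.01, 62.3, 63.2, 61.5 and 66.5 CPM in the 5 deprived libraries, rose 1.29-fold (adjusted p = 0.00151), and was the only one to pass in a list with a median of 0.02. On FPKM the change of Ndufb2 did not pass (adjusted p = 0.194 and 0.191 with the pseudocounts of 0.1 and 1). Its exons overlap Braf on the opposite strand.

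Of 31 measured endothelial markers 3 rose and 0 fell. Of the 31, 21 were above 0 and 10 below, 7 reached an unadjusted p under 0.05 on the higher side and 3 on the lower, the median was 0.06, and the log2 changes ran from -0.73 to 1.21. Over all genes 0.775% rose, and 6.4% and 5.18% reached an unadjusted p under 0.05 on the higher and lower side. Klf2, a flow-responsive transcription factor of endothelium, was at 11.98, 10.3, 10.9 and 9.41 CPM in the 4 sleep libraries and 18.02, 18.8, 19.7, 20.01 and 22.6 CPM in the 5 deprived libraries, with no overlap. It rose 1.86-fold (log2 change 0.90, SE 0.13, adjusted p = 0.00198). Mfsd2a, which carries docosahexaenoic acid across the blood-brain barrier, was at 42.6, 42.7, 42.8 and 34.6 CPM in the 4 sleep libraries and 81.5, 48.5, 56.7, 77.8 and 89.1 CPM in the 5 deprived libraries. Libraries 7 and 8 were again the lowest of the deprived ones. It rose 1.74-fold (adjusted p = 0.013), but not without WT_S6 library 4 (adjusted p = 0.0603). Stab2, a scavenger receptor gene, rose 2.32-fold (adjusted p = 0.0352) with overlapping groups, and its call was lost without any of 6 libraries (highest adjusted p = 0.123). The count of vessel genes that rose was 1 without WT_S6 library 4 or within the control libraries alone. In tissue libraries such as these, more cells of a type and more RNA per cell cannot be told apart, and the same holds for every cell type below.

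Transcripts of mature oligodendrocytes lay mostly below 0. Of 30 measured myelin and oligodendrocyte markers 4 fell and 0 rose, 29 were below 0, 12 reached an unadjusted p under 0.05 on the lower side, and the median was -0.17. Of all genes 0.367% fell and 5.18% reached an unadjusted p under 0.05 on the lower side. Their mean log2 CPM was 6.604, 6.67, 6.66 and 6.42 after sleep and 6.44, 6.25, 6.42, 6.08 and 6.34 after deprivation. With that mean as a covariate 1 of the 30 passed, a drop largely built in because the mean is made of these same genes. Rises then numbered 2 in the insulin list, 1 among the activity factors, 0 among the activity effectors and 0 in the clock core. There was 1 among the endoplasmic reticulum chaperones and 1 among the MAP kinase inhibitors. In the same fit 13 of the glucocorticoid list rose in place of 18, 2 of the heat shock list in place of 3, and 3 of the endothelial and 3 of the lipid droplet list as before. The part of oligodendrocytes in those rises was not tested. Opalin, a membrane protein gene of myelinating cells, was at 43.03, 43.8, 46.2 and 40.7 CPM in the 4 sleep libraries and 20.2, 17.4, 24.4, 13.1 and 14.1 CPM in the 5 deprived libraries. The lowest sleep library held 40.7 CPM and the highest deprived library 24.4. It was 2.43-fold lower (log2 change -1.28, SE 0.15, adjusted p = 3.0e-04), and with the oligodendrocyte score, of which it is a member, as covariate the log2 change of Opalin was -0.95.

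Aspa, which frees acetate for myelin lipids, was at 62.4, 62.5, 58.7 and 48.4 CPM in the 4 sleep libraries and 40.2, 36.03, 38.4, 26.01 and 40.2 CPM in the 5 deprived libraries. It was 1.597-fold lower (log2 change -0.68, SE 0.14, adjusted p = 0.0209), with no overlap. Pllp, a proteolipid gene of myelin, was 1.70-fold lower (adjusted p = 0.0137), and Ninj2, an adhesion gene, 2.26-fold lower (adjusted p = 0.0197). Pllp lost its call without WT_S6 library 3 (adjusted p = 0.0531), and Ninj2 and Aspa without any of 4 and 4 libraries (highest adjusted p = 0.0807 and 0.0839). The number of these markers that fell was 2 without WT_S6 library 1 or 2 and 1 without WT_S6 library 3. Mbp, which codes for myelin basic protein, was not among them, at 372 to 393 CPM after sleep and 328 to 372 CPM after deprivation (log2 change -0.10, adjusted p = 0.811). Counts as dense as those of Mbp (284 per kilobase of exon) rose less than in proportion to the library total, with a median slope of 0.81 on log scales for genes of like density.

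Of 19 markers of precursors and newly formed oligodendrocytes only Enpp6, a gene of newly formed cells, passed. It was at 40.2, 47.8, 48.4 and 36.7 CPM in the 4 sleep libraries and 30.7, 27.1, 24.7, 12.5 and 31.1 CPM in the 5 deprived libraries, and library 9 was the lowest. The level was 1.70-fold lower (adjusted p = 0.0472), a call lost without any of 14 libraries (highest adjusted p = 0.145). Pdgfra, which marks the precursors, was at 95.6 to 108 CPM after sleep and 67.1 to 113 CPM after deprivation (log2 change -0.11, adjusted p = 0.794).

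Microglia markers also lay mostly below 0. Of 22 genes 20 were below 0, 10 reached an unadjusted p under 0.05 on the lower side and 1 passed, with a median of -0.18. Over all genes 5.18% reached an unadjusted p under 0.05 on the lower side and 0.367% fell. Cx3cr1, the fractalkine receptor gene of microglia, was at 60.4, 52.3, 50.5 and 52.6 CPM in the 4 sleep libraries and 48.2, 46.2, 34.9, 37.5 and 40.4 CPM in the 5 deprived libraries. The groups did not overlap, and libraries 8 and 9 were lowest, as they were in the mean of all microglia markers (3.86 and 4.03, against 4.31 to 4.46 after sleep). Cx3cr1 was 1.3-fold lower (log2 change -0.38, SE 0.09, adjusted p = 0.0472), and its call was lost without any of 15 libraries (highest adjusted p = 0.186). Of 24 interferon-induced genes 22 were below 0 and 0 passed with edgeR, DESeq2 or limma voom, with 4 at an unadjusted p under 0.05. Their median was -0.22, and by library the mean difference from the sleep mean was 0.01, -0.20, 0.40 and -0.21 after sleep and -0.21, 0.02, -0.23, -0.43 and -0.23 after deprivation. Library 3 alone was high, and the other 3 sleep libraries lay within the deprived range.

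Falls outside the glial lists were varied, and the part of oligodendrocytes in them was not tested. With the oligodendrocyte score as covariate Npas3, Serpinb1a, Sytl2 and Tfrc lost their calls, while Armcx5 and Parn kept theirs. Armcx5, an armadillo-repeat gene of the X chromosome, was at 39.1, 39.04, 39.2 and 39.95 CPM in the 4 sleep libraries and 27.2, 24.4, 23.01, 25.1 and 31.5 CPM in the 5 deprived libraries, with sleep libraries that hardly differed. It was 1.49-fold lower (log2 change -0.58, SE 0.08, adjusted p = 8.2e-04). Parn, which trims poly(A) tails, was 1.26-fold lower (adjusted p = 0.00276), and Tfrc, the transferrin receptor gene, 1.26-fold lower (adjusted p = 0.013). Sytl2, a vesicle-tethering gene, was at 92.6 to 110.2 CPM after sleep and 58.2 to 83.3 CPM after deprivation, 1.51-fold lower (adjusted p = 0.00804), and Npas3, a transcription factor gene, at 55.8 to 67.4 CPM after sleep and 37.8 to 51.3 CPM after deprivation, 1.39-fold lower (adjusted p = 0.00946). Phldb1, a cortical scaffold gene, was the only fall above a mean of 200 CPM. It was at 248, 288, 284 and 243 CPM in the 4 sleep libraries and 212, 204, 219, 198 and 204 CPM in the 5 deprived libraries and 1.28-fold lower (adjusted p = 0.0186), with a call lost without any of 3 libraries (highest adjusted p = 0.0879).

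Serpinb1a, an elastase inhibitor gene, was at 28.1, 31.02, 29.05 and 25.1 CPM in the 4 sleep libraries and 20.8, 15.5, 17.98, 11.3 and 15.7 CPM in the 5 deprived libraries and 1.73-fold lower (adjusted p = 0.00941). The cartilage collagen gene Col2a1 was the only 1 of 51 matrix genes and of 22 pericyte and smooth muscle genes to pass, at 11.3 to 14.2 CPM after sleep and 5.49 to 9.09 CPM after deprivation, 1.79-fold lower (adjusted p = 0.0209). Slc22a8, an organic anion transporter gene, was 1.55-fold lower (adjusted p = 0.0168), Abcc6, an ATP-exporting transporter gene, 1.83-fold lower (adjusted p = 0.0175), and Pipox, which breaks down pipecolic acid, 1.74-fold lower (adjusted p = 0.0284). Trim59, a ubiquitin ligase gene, and Slc26a8, an anion transporter gene, were 1.55-fold and 1.604-fold lower (adjusted p = 0.0446 and 0.0472), and each lost its call without any of 14 libraries (highest adjusted p = 0.137 and 0.147). The number of such libraries was 3 for Col2a1 (adjusted p up to 0.0864), 6 for Pipox (up to 0.113), 2 for Abcc6 (up to 0.069) and 1 for Slc22a8 (WT_S6 library 1, 0.0765).

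How fine a difference the design resolved cannot be read from the smallest changes to pass, which were picked from the calls. Among rises these were Igf1r and Ccng1, given above, Cnot4, of the deadenylase complex (1.14-fold, adjusted p = 0.0459), Rabif (1.15-fold, adjusted p = 0.0391), the RNA-binding gene Rbm6 (1.15-fold, adjusted p = 0.0337), the RNA methyltransferase Mettl16 (1.16-fold, adjusted p = 0.0409), Mafg (1.16-fold, adjusted p = 0.0459) and the peroxisomal import receptor Pex5 (1.16-fold, adjusted p = 0.0361). Cnot4 was at 60.5, 66.2, 63.5 and 64.6 CPM in the 4 sleep libraries and 69.1, 75.6, 76.1, 69.5 and 74.3 CPM in the 5 deprived libraries, and the highest sleep library (66.2) lay just under the lowest deprived one (69.1). Single libraries ended the calls of these 6 genes in 15, 11, 7, 13, 15 and 10 of 19 cases, with highest adjusted p-values of 0.169, 0.138, 0.109, 0.128, 0.15 and 0.135.

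Among falls the smallest were Epm2a, given above, the phospholipid flippase Atp11b (1.16-fold lower, adjusted p = 0.0133), Tubgcp2, of the gamma-tubulin complex (1.17-fold lower, adjusted p = 0.0355), and Exoc2, of the exocyst (1.18-fold lower, adjusted p = 0.0231). Las1l, a ribosome maturation gene, was 1.204-fold lower (adjusted p = 0.0103), Ankrd16 1.21-fold lower (adjusted p = 0.0197), the centrosome gene Cep131 1.23-fold lower (adjusted p = 0.0209) and the axon gene Shtn1 1.23-fold lower (adjusted p = 0.0205). Atp11b was at 186, 185, 180.3 and 193 CPM in the 4 sleep libraries and 156, 157, 158, 169 and 162 CPM in the 5 deprived libraries, with no overlap between the groups. Its call and that of Las1l were lost without 1 library (WT_S6 library 4, adjusted p = 0.0625, and WT_S6 library 2, 0.0506). Tubgcp2, Exoc2, Ankrd16, Cep131 and Shtn1 lost theirs without any of 4, 5, 2, 3 and 3 libraries (0.143, 0.108, 0.0883, 0.084 and 0.092 at the highest). The abundant falls Padi2, a citrullinating enzyme of oligodendrocytes (1.34-fold lower, adjusted p = 0.0459), and Zkscan2, a zinc finger gene (1.24-fold lower, adjusted p = 0.0486), lost theirs without any of 14 and 16 libraries (0.169 and 0.168).

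Of the 55 lists, 27 had no member that passed, with 743 genes between them, of which 40 (5.38%) reached an unadjusted p under 0.05, against 11.6% of all genes. DESeq2 called 2 of the 743 and limma voom 0. The 95% interval lay inside 1.2-fold for 378 of them (50.9%), against 45.5% of all genes. The lists of this class were picked for having no call, which by itself favours a low first share and a high second one. Neither contrast with all genes thus measures a weaker response. The noradrenergic genes were in this class, with 0 of 17 at an unadjusted p under 0.05 and a median of 0.02. Th, for the enzyme that starts catecholamine synthesis, was at 136, 140.1, 86.4 and 82.1 CPM in the 4 sleep libraries and 140.2, 122, 58.8, 102 and 143 CPM in the 5 deprived libraries. Library 8 was the lowest of its group, and the ranges of the groups overlapped. Gal, a neuropeptide gene of these neurons, was at 20.5 to 36.9 CPM after sleep and 15.9 to 41.3 CPM after deprivation, and Slc18a2, which fills vesicles with monoamines, at 166 to 288 CPM after sleep and 108 to 260.1 CPM after deprivation.

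The receptors and channels of the tissue also gave no calls. Adra2a, the inhibitory autoreceptor gene, was at 66.1 to 86.4 CPM after sleep and 50.6 to 88.3 CPM after deprivation, and Adora1, the adenosine receptor gene tied to sleep pressure, at 128 to 161 CPM after sleep and 139 to 176 CPM after deprivation (log2 change 0.10, adjusted p = 0.638). Of 31 GABA and glycine genes, 38 release genes and 39 sodium, calcium and HCN channel genes 0 passed with edgeR, DESeq2 or limma voom and 0 reached an unadjusted p under 0.05, against 1 of 46 glutamate genes and 2 of 52 potassium channel genes. Gria2, a glutamate receptor subunit gene, was at 382 to 429 CPM after sleep and 364 to 410.1 CPM after deprivation, Gabbr1, a GABA receptor gene, at 444 to 467 CPM after sleep and 400.2 to 488 CPM after deprivation, and Kcna2, a potassium channel gene of axons, at 509.8 to 545 CPM after sleep and 499.9 to 556 CPM after deprivation.

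Calcineurin genes and the kinases linked to sleep need gave 0 calls among 20 and 31 members with edgeR, DESeq2 and limma voom, with 1 and 5 at an unadjusted p under 0.05. Ppp3ca, the catalytic subunit gene of calcineurin, was at 266 to 309 CPM after sleep and 237 to 325 CPM after deprivation (log2 change -0.03, adjusted p = 0.958), and Gsk3b, a kinase gene, at 338 to 366 CPM after sleep and 317 to 353 CPM after deprivation (log2 change -0.05, adjusted p = 0.854). Of 80 ribosomal protein genes 0 passed with any of these tools, with 1 at an unadjusted p under 0.05 and a median of -0.02. Rps15a was at 164 to 175 CPM after sleep and 150.0 to 174 CPM after deprivation. The 22 cerebellar markers were all above 0, with a median of 0.25, 0 called and 0 at an unadjusted p under 0.05, and their summed CPM ran from 1924 to 4237 after sleep and from 1242 to 5639 after deprivation.

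**Figure D5:**
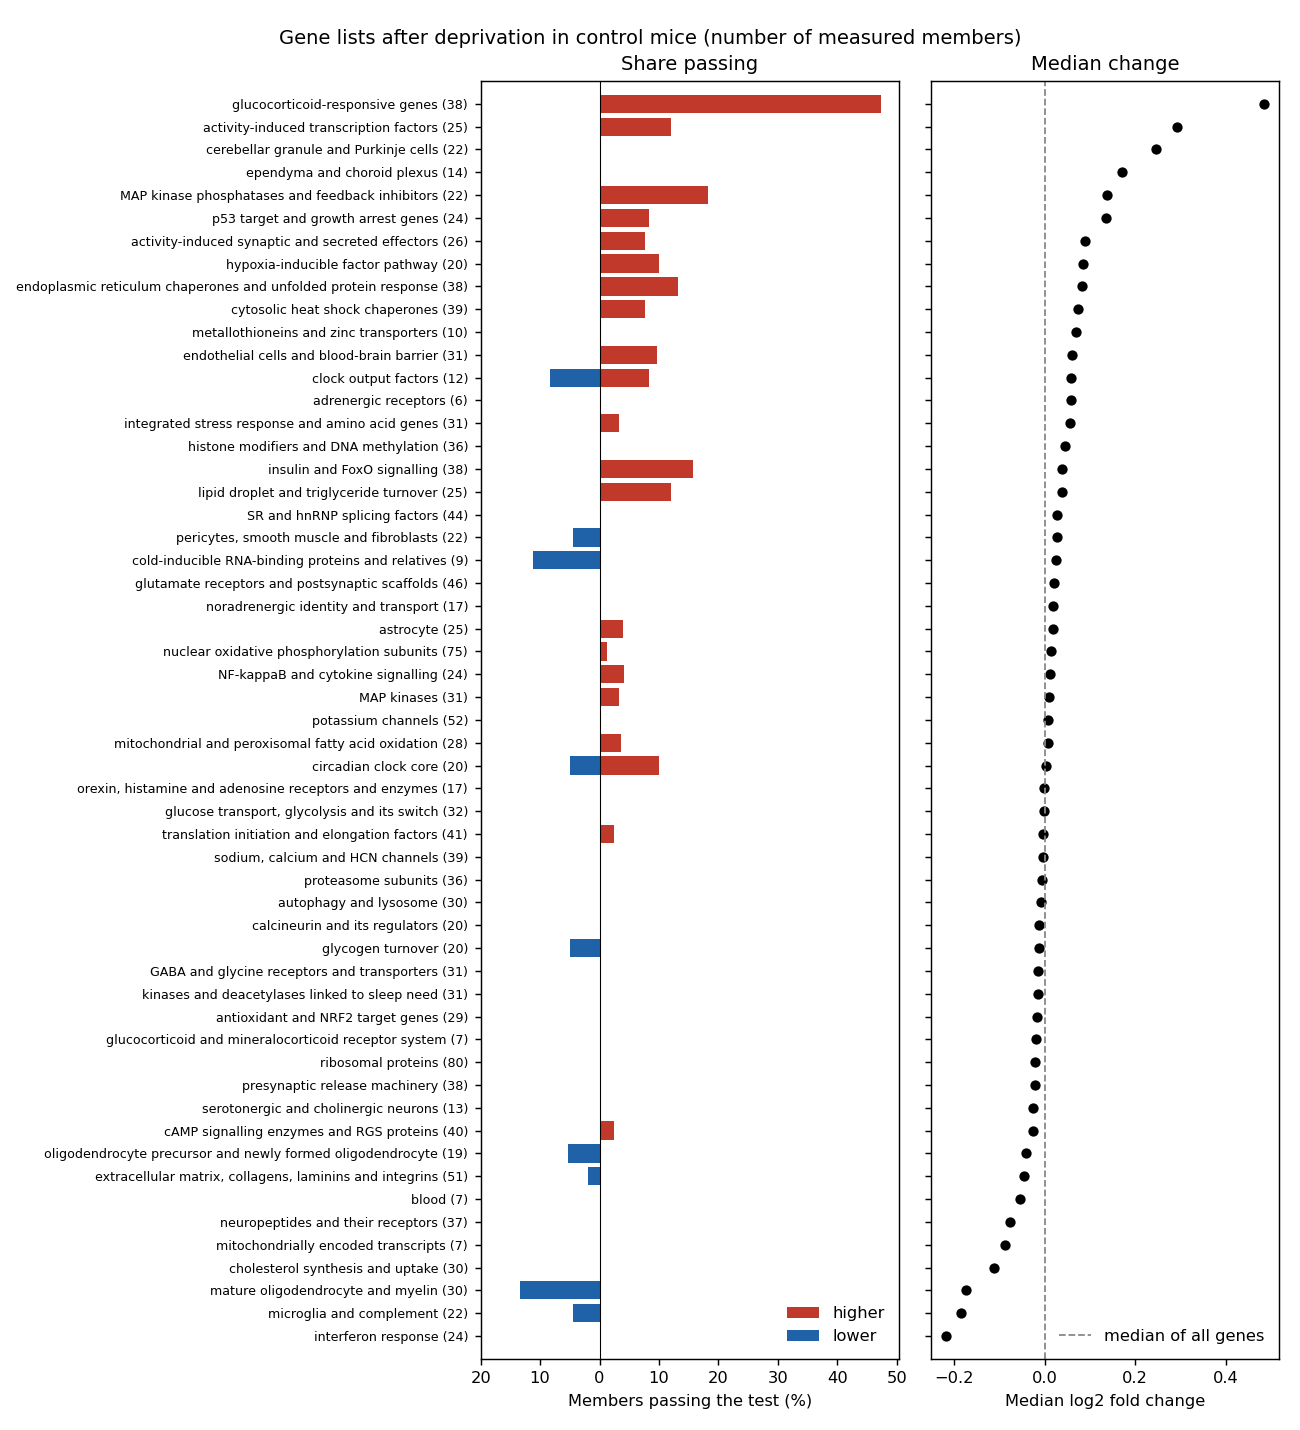
For each of the 55 gene lists, the percentage of measured members that passed, by direction, and the median log2 change of the members in control mice. Glucocorticoid-responsive genes stand apart with 18 of 38 members higher, and 27 lists have none.

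The knockout libraries give values of the same genes in samples that entered their choice only through the shared estimate of the spread. In CnB1KO mice 100 genes (0.692%) passed, 67 higher and 33 lower. Of the 165 genes called in control mice 164 had a change of the same sign there, against 66% of all genes, and 66 passed there as well. The median log2 change of the 112 rises was 0.46 in control and 0.32 in CnB1KO mice, and that of the 53 falls -0.51 and -0.34. The change was the larger in control mice for 139 of the 165, but these genes were chosen by their control values. The log2 change of Opalin was -1.28 in control and -0.88 in CnB1KO mice, that of Sgk1 0.98 and 1.06, that of Klf2 0.90 and 0.28, that of Dusp1 0.91 and 0.47, and that of Slc38a2 0.33 and 0.50. The medians of the activity factor list were 0.29 and 0.03, and those of the oligodendrocyte list -0.17 and -0.03. The difference between the genotypes was tested gene by gene. With edgeR 0 genes passed, with 287 (1.99%) at an unadjusted p under 0.05, 24 of them among the 165, while DESeq2 called 1 and limma voom 0. No response above is therefore shown to be particular to control mice.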

How the data were processed

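Poly(A) RNA of dissected locus coeruleus was sequenced without strand information in 19 libraries, of which 9 are described. The deposited count table holds whole-number counts per gene that the authors made for 14443 symbols, each with at least 381 counts over the libraries. The deposited FPKM tables, normalized by the authors for gene length and depth, served only for an alternative test, and the TPM columns beside them were not used. Per the submitters' processing notes the tools were HTSeq 2.0.4, StringTie 2.2.1, SAMtools 1.6, Picard 2.18.29, FastQC 0.12.1 and Trim Galore 0.6.10, with the build GRCm38. Neither aligner nor annotation release nor duplicate handling was given in the sources used here. Columns were mapped to groups by their names. The mapping gives groups, not replicate numbers.

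Counts were scaled by TMM and fitted with edgeR 4.0.16 in R 4.3.3 (quasi-likelihood F test, 2-sided, all 19 libraries in 4 groups, no covariate, 15 residual degrees of freedom, common dispersion 0.0121), and the contrast was WT_SD6 minus WT_S6. Genes with a p under 0.05 after Benjamini-Hochberg adjustment across the table passed, and glmTreat tested against 1.2-fold. The SE is the log2 change divided by the square root of F. The labels name no batch. The script was tested on simulated counts with known changes. Alternatives used DESeq2 1.42.0, limma 3.58.1, other scalings and filters, FPKM with pseudocounts of 0.1 and 1, marker scores or the library total as covariates, and each library left out. Positions came from GENCODE M21 (97.6% of symbols matched) and promoters from RefSeq, which matched 11044 symbols. Depth limits low genes most, as the interval widths in the results give. No share of counts is reported, so no binomial interval is given.

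The members and the 55 gene lists, with 1498 measured of 1584 genes, were chosen with earlier results of these data known. Genes were named by a rule. Among those that passed it took the 12 largest changes in each direction where the mean log2 CPM reached 1, the 10 smallest p, the 8 most abundant and the 8 smallest changes, without provisional symbols. It added every list member that passed, the 2 most abundant genes of each list with none, and 21 fixed genes, for 167 in all.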

Additional observations from a re-analysis of the deposited data

Results flagged for a closer look

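In each of the 2 control groups the level of every gene named by the rule was checked for 1 library far from the rest of its group. A library was picked out where its gap to the nearest other library exceeded 0.829 of the group's range for 4 libraries or 0.71 for 5. This held for 16 of 334 groups, and chance alone flags about 1 in 20 groups, so the number is close to that rate.

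After sleep, library 2 was high for Hif3a (29.47 CPM, against 15.88 to 17.58 in the others), for Hspa1a (5.092, against 3.625 to 3.856) and for Exoc2 (93.2, against 84.79 to 86.14). Library 3 was high for Igf1r (180.7, against 175.9 to 176.5) and low for the glycolysis gene Gpi1 (266.4, against 294.6 to 297.6) and for the mitochondrial transcripts mt-Nd5 (302.2, against 323.4 to 327.3) and mt-Cytb (192.9, against 210.4 to 211.9). Library 4 was low for Paqr8 (239.7, against 252.3 to 254.1), Tns3 (138.2, against 151.8 to 154), Npas3 (55.84, against 66.35 to 67.39) and Mfsd2a (34.55, against 42.55 to 42.78).

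After deprivation, library 7 was high for Per3 (99.32, against 77.85 to 82.91), library 9 for the splicing scaffold gene Srrm2 (692.4, against 569.5 to 602.9) and library 10 for Pdk4 (25.58, against 16.25 to 16.92). Library 8 was low for Zkscan2 (67.21, against 83.3 to 88.72) and for Adra1a, an adrenergic receptor gene (23.62, against 33.77 to 37.56). Library 8 also had the lowest noradrenergic score, 5.74, and the part of that score in the Adra1a value was not tested.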

How the results depend on the processing

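All 165 genes that passed kept their direction under every alternative in which they were tested. Of the 95 that are named, 16 passed under every alternative in which they were tested, which was 32 for Phyhd1, whose mean is under 100 counts, and 33 for the others (Cdkn1a, Phyhd1, Opalin, Sdf2l1, Errfi1, Hip1, P4ha1, Gpt2, Sgk1, Slc38a2, Tns3, Slc5a3, Armcx5, Cirbp, Mertk and Klf2), 40 passed whichever library was left out, and 55 lost their call without at least 1 library. The 112 rises and 53 falls became 27 and 8 within the 9 control libraries alone, 51 and 18 on FPKM with a pseudocount of 0.1, and 48 and 18 with a pseudocount of 1. They became 61 and 15 with the oligodendrocyte score as a covariate, and 250 and 145 with the cerebellar score. Falls alone moved to 81 with DESeq2, 33 among genes with a mean of at least 100 counts, where fewer genes were tested, and 87 with the noradrenergic score. The cause was not tested. Leaving out each library in turn gave 53 to 119 rises and 19 to 57 falls, with the lowest counts without WT_S6 libraries 4 and 2. Beyond 1.1-fold 54 genes passed in place of 9. The difference between genotypes gave 1 gene with DESeq2 in place of 0. A filter of 1 CPM in at least 4 libraries removed no gene. Depth limited the low genes, and above 200 counts per kilobase of exon counts rose less than in proportion to depth. No paired analysis was possible because the numbers of the columns, which run through the whole series, do not carry the replicate numbers of the sample titles.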
